A study of Danio rerio with 2 samples.

Results

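Astacin proteases were followed in whole zebrafish larvae through 4 genes, the gut astacins c6ast4 and c6ast3 and the hatching gland astacins he1a and he1b. They were taken by symbol from the 33733 rows of the authors' deposited table, in which each has 1 row, and they were chosen by their levels in these 2 libraries, the mutant value set against the wild-type value. The mutant library was made from 20 pooled larvae homozygous for lri35 at 5 days post fertilization, and the other library from 20 pooled wild-type siblings of the same age, both of AB/TL strain and taken as whole bodies. Sample labels write the allele as lir35. Which gene it affects is not stated in the labels, so no targeted gene was available to check them. There is 1 library per genotype and no replicate, so every difference below compares 2 libraries and has no replicate check.

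Astacins are secreted or membrane-bound zinc metalloproteases, named after a digestive enzyme of crayfish. The family takes in digestive proteases, the meprins of brush borders, the tolloid-type proteases that process procollagens and growth factor antagonists, and the enzymes that dissolve the egg envelope at hatching. In fish the hatching enzymes are made by hatching gland cells and released when the embryo hatches, after which the gland is lost. The c6ast genes encode astacins with a characteristic set of additional conserved cysteines, and c6ast3 and c6ast4 are grouped here as gut genes by the label of the set, which whole-body RNA cannot show.

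Values are FPKM, fragments scaled to gene length and to the number of mapped fragments, a unit inferred from the layout of the table. A gene counted as measured at a mean of at least 1 FPKM over both libraries, and as higher or lower in the mutant library when log2((mutant + 1)/(wild type + 1)) reached 2-fold. All 4 astacins were measured. Both gut astacins were lower and both hatching gland astacins higher in the mutant library. Over all 19112 measured genes, 3.12% reached 2-fold on the lower side and 2.87% on the higher side. These are the values by which the 4 genes were chosen, so the counts describe them and nothing is read from their excess over that background.

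c6ast4 had 209 FPKM in the mutant library, against 526 FPKM in the wild-type library. It was the most abundant astacin in both, at level rank 444 of 29358 symbols in the mutant library and rank 250 in wild type. Its level was 2.52-fold lower in the mutant library, a log2 difference of -1.33. In the band from 50 FPKM upward, which holds 1653 genes of which 2.06% were lower by 2-fold or more, it stood at place 18 counted from the lowest difference. The authors' deposited table calls this row, at a p of 5e-05 and a q of 0.0405, and it calls 15 rows lower out of 14574 tested, or 0.103%. With 1 library per genotype, those p-values and q-values compare the libraries and not the genotypes.

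c6ast3 had 7.01 FPKM in the mutant library, against 22.2 FPKM in the wild-type library. Its level was thus far below that of c6ast4 in both libraries. The gene was 3.17-fold lower in the mutant library, a log2 difference of -1.53. In the band of 10 to 50 FPKM, where 1.01% of 5637 genes were lower by 2-fold or more, it stood at place 17 from the lowest difference. The authors' deposited table gives c6ast3 a p of 0.00755 and a q of 0.994, so it was not called there. Before correction, 1.7% of the tested rows in the authors' deposited table were lower with a p under 0.05.

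The 2 gut astacins together summed to 216 FPKM in the mutant library and 549 FPKM in wild type, a level 2.54-fold lower. The level of c6ast4 per c6ast3 was 29.9 in the mutant library and 23.7 in wild type. Nearly all of the summed level was c6ast4 in both libraries. In bulk RNA of whole larvae, fewer cells of a type and less RNA per cell cannot be told apart.

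he1a, named he1.1 in RefSeq, encodes a hatching enzyme that digests the egg envelope. It had 35.6 FPKM in the mutant library, against 11.4 FPKM in the wild-type library. The level was 3.12-fold higher in the mutant library, a log2 difference of 1.56. In the band of 10 to 50 FPKM, 0.94% of genes were higher by 2-fold or more, and he1a stood at place 16 from the highest difference. The authors' deposited table gives he1a a p of 0.0078 and a q of 0.994, against a background of 1.24% of tested rows that were higher with a p under 0.05.

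he1b, named he1.2 in RefSeq, is the neighbouring hatching enzyme gene. It had 8.6 FPKM in the mutant library, against 1.12 FPKM in the wild-type library. The plain ratio was 7.7-fold, and the log2 difference with the pseudocount of 1 FPKM was 2.18. In the band of 1 to 10 FPKM, where 4.13% of 11822 genes were higher by 2-fold or more, he1b stood at place 69 from the highest difference. The authors' deposited table gives he1b a p of 0.178, the largest of the 4 members.

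Summed, the 2 hatching gland astacins had 44.2 FPKM in the mutant library and 12.5 FPKM in wild type, a level 3.53-fold higher. The level of he1a per he1b was 4.14 in the mutant library and 10.2 in wild type. The third gene of the group, he2 (he1.3 in RefSeq), was listed at 0 in both libraries. he1a, he1b and he2 share 1 region in the deposited table with the aldehyde oxidase genes aox1 and aox3, and the labels do not say how reads shared by close copies were assigned. The split between he1a and he1b is therefore uncertain, and their sum is less exposed to it. aox1 stood at 1.83 FPKM in the mutant library and 3.3 FPKM in wild type, and aox3 at 2.56 and 2.02 FPKM in the same order.

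The order of levels differed between the libraries. In the mutant library c6ast4 was followed by he1a, he1b and c6ast3, and in wild type by c6ast3, he1a and he1b. Without replicates, no spread is available to say which neighbours in either order differ. The summed level of the gut astacins per hatching gland astacins was 4.9 in the mutant library and 43.8 in wild type, 8.95-fold lower in the mutant library. Both pairs were chosen by these values, so this ratio describes them and nothing is read from its size.

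**Figure D1:**
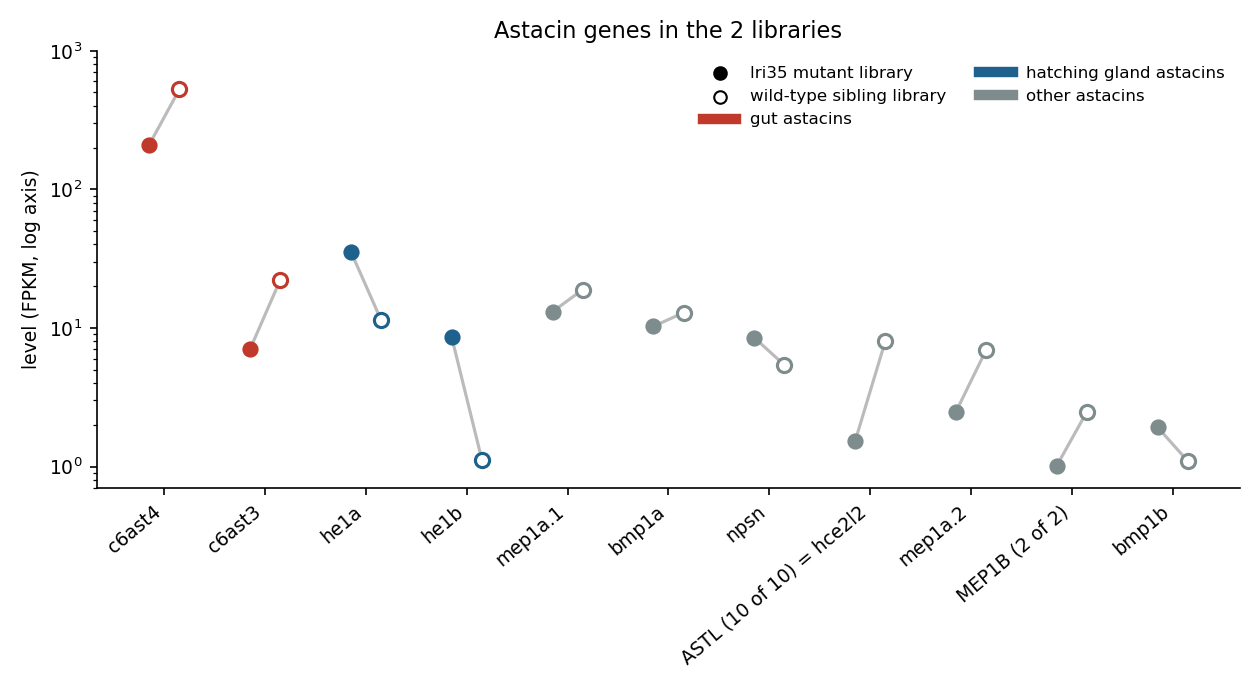
Level of the 11 measured astacin genes in FPKM (log axis), with filled points for the lri35 mutant library and open points for the wild-type sibling library, 1 library each and no error. c6ast4 and c6ast3 lie lower in the mutant library (209 against 526 and 7.01 against 22.2 FPKM), while he1a and he1b lie higher (35.6 against 11.4 and 8.6 against 1.12 FPKM).

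The rest of the family was taken from a list of 24 astacin symbols and older or alternative names, which found 17 genes, the 4 members included. Of the other 13, 7 were measured, 3 were listed at 0 in both libraries and 3 were above 0 but under the mean of 1 FPKM. Of the 7 measured, 2 reached 2-fold on the lower side in the mutant library, 0 on the higher side, and 5 stayed inside 2-fold. Both of the lower ones lie in the band of 1 to 10 FPKM, where 4.27% of all genes were lower by 2-fold or more. The median log2 difference of the 7 was -0.50, against -0.01 over all 19112 measured genes. Of the 7, only mep1a.1 and bmp1a averaged 10 FPKM or more. With so few genes and no replicates, this median describes the libraries only.

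Among the astacins named for egg envelope digestion, the direction was not shared. ASTL (10 of 10), which has the current symbol hce2l2, from its likeness to a high choriolytic enzyme, had 1.52 FPKM in the mutant library and 8.03 FPKM in wild type, a log2 difference of -1.84. Its neighbour ASTL (7 of 10), now hce2l1, was listed at 0 in the mutant library and at 1.85 FPKM in wild type and was not measured. These 2 genes thus stood lower in the mutant library while he1a and he1b stood higher. The authors' deposited table gives ASTL (10 of 10) a p of 0.0768 and left ASTL (7 of 10) untested.

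Meprins are proteases of the brush border of gut and kidney in mammals. With the pseudocount, 1 of their 3 measured genes was lower by 2-fold or more, against 3.12% of all measured genes. The alpha subunit gene mep1a.2 had 2.48 FPKM in the mutant library and 6.93 FPKM in wild type, a log2 difference of -1.19. Its neighbour mep1a.1 had 13.1 and 18.9 FPKM in the same order and lay within 2-fold. The beta subunit gene MEP1B (2 of 2) had 1.01 FPKM in the mutant library and 2.49 FPKM in wild type. Its plain ratio was 2.46-fold, but with the pseudocount its log2 difference was -0.80, within 2-fold. The other beta subunit gene, mep1b, not measured, had 0.265 and 1.35 FPKM in the same order. In the mutant library the levels of all 4 meprin genes found were below those in wild type, and over all measured genes 50.9% had a log2 difference below 0. The authors' deposited table gives mep1a.2 a p of 0.0236 and mep1a.1 a p of 0.33.

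The remaining astacins lay within 2-fold or were barely detected. npsn, the nephrosin gene, which marks neutrophils in zebrafish, had 8.52 FPKM in the mutant library and 5.39 FPKM in wild type. The tolloid-type genes bmp1a and bmp1b, whose products process procollagens, went opposite ways within 2-fold. bmp1a had 10.3 FPKM in the mutant library and 12.9 FPKM in wild type, and bmp1b had 1.92 and 1.09 FPKM in the same order. tll1, of the same group, had 1.11 FPKM in the mutant library and 0.35 FPKM in wild type and was not measured. c6ast1, he2 and ASTL (8 of 10) were listed at 0 in both libraries.

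**Figure D2:**
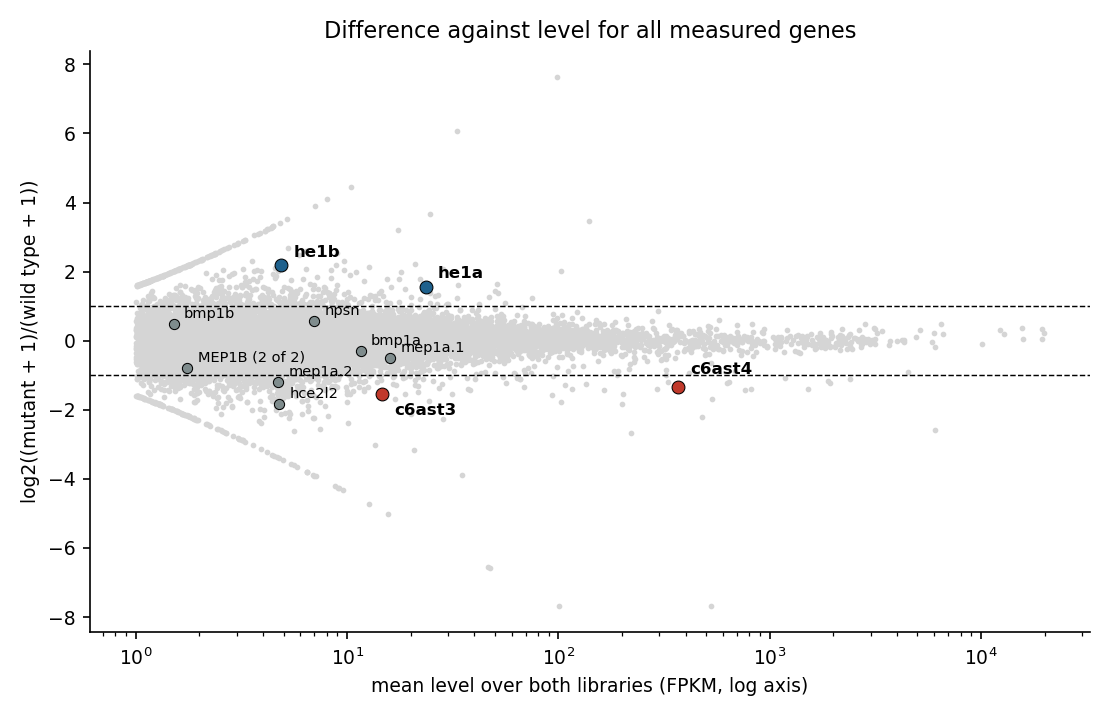
Log2 difference, mutant over wild type with 1 FPKM added to each, against the mean level (FPKM, log axis) for all 19112 measured genes in light grey, with the 11 measured astacins as larger points and dashed lines at 2-fold. c6ast4 (-1.33) and c6ast3 (-1.53) lie under the lower line and he1a (1.56) and he1b (2.18) above the upper one, while the scatter of all genes widens toward low levels, where he1b lies.

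On Zv9, the build named in the submitters' processing notes, c6ast4 lies at chr7:40027642-40030911 and c6ast3 next to it at chr7:40034215-40036662. They are followed by npsn at chr7:40045582-40051579 and c6ast1 at chr7:40053905-40057071. In RefSeq the 4 genes also follow each other with 0 other genes between them. The cluster was not uniform, with c6ast4 and c6ast3 lower in the mutant library, npsn higher within 2-fold and c6ast1 listed at 0 in both. Of the 8 nearest measured genes on each side, 0 of 16 reached 2-fold in either direction, near the shares of 3.12% lower and 2.87% higher over all genes, and their log2 differences ran from -0.96 (slc7a9) to 0.43 (mtch2) with a median of -0.03.

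The region that holds he1a, he1b and he2 spans chr22:14196008-14259407. Around it, 1 of 16 measured neighbours was lower by 2-fold or more and 2 were higher by as much, and the median was -0.06. Over all measured genes the shares were 3.12% lower and 2.87% higher. The neighbours past 2-fold all average 1 to 10 FPKM, a band with 4.27% of genes lower and 4.13% higher. Their regions start at least 312.5 kb from the start of the astacin region. The highest neighbour was si:dkey-74i2.2, at 3.6 FPKM in the mutant library and listed at 0 in wild type. The hce2l2 gene ASTL (10 of 10) lies at chr9:13164659-13170054 and ASTL (7 of 10) at chr9:13170884-13177206, and 0 of their 16 measured neighbours reached 2-fold, again near the shares over all genes. Exons, introns and UTRs are not given, since no Zv9 annotation was used here.

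**Figure D3:**
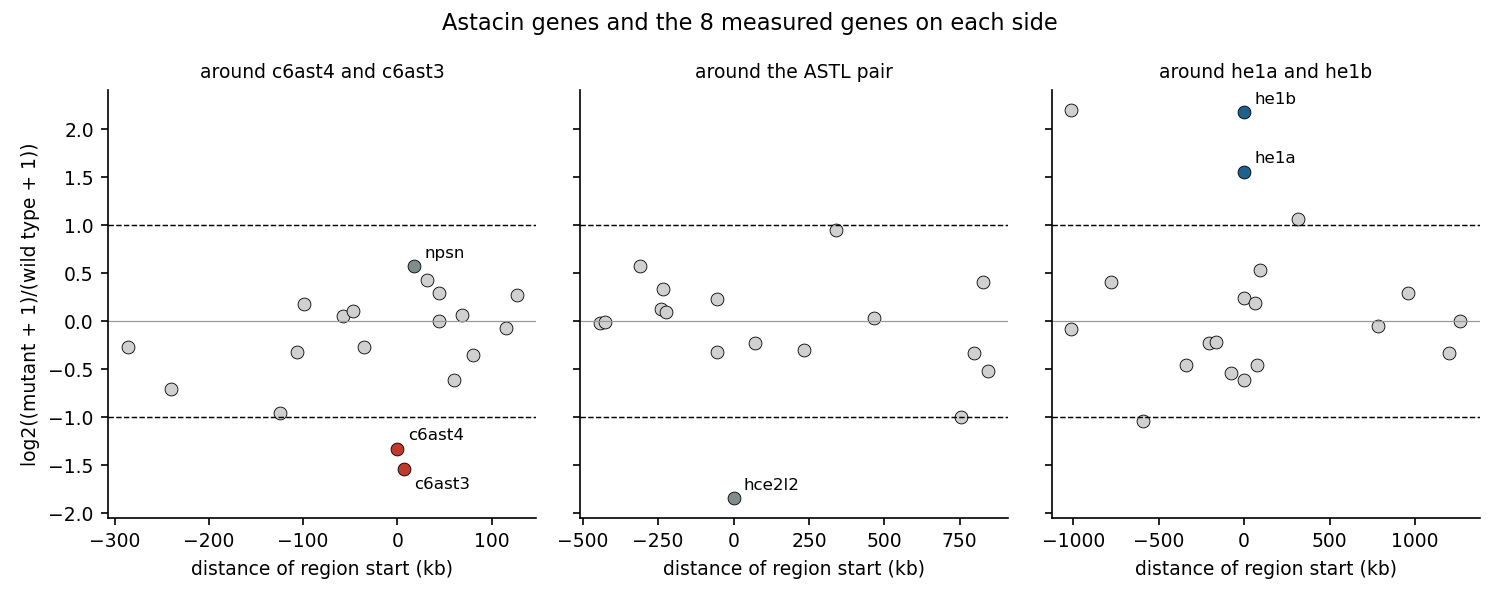
Log2 difference, mutant over wild type, for the measured astacins of 3 chromosomal clusters and the 8 measured genes on each side, against the distance in kb of each region's start from the first astacin region, with dashed lines at 2-fold. Light grey points are genes that are not astacins. he1a and he1b sit at 0 kb with 2 other genes because the deposited table gives them 1 shared region. c6ast4 and c6ast3, chosen by their low values, lie under their 16 neighbours.

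The markers of tissues that could carry astacin RNA were set beside the members. Of 22 measured enterocyte genes, 2 were lower by 2-fold or more, chia.3 and the amino acid transporter gene slc6a19b, and 0 were higher, with a median log2 difference of -0.35. Over all measured genes the shares were 3.12% lower and 2.87% higher, with a median of -0.01. With a pseudocount of 5 FPKM, 0 of the 22 enterocyte genes were lower by 2-fold or more. The count of lower genes over all genes then fell from 596 to 124. None of the 22 was as low as c6ast4 or c6ast3. Those gut astacins were chosen by their low values, so nothing is read from this. The 9 measured genes of lysosome-rich enterocytes, which take up luminal protein, all lay below 0 but within 2-fold, with a median of -0.47. Of the 22 enterocyte genes, 20 lay below 0 too, and over all measured genes 50.9% did. Of 6 measured goblet cell genes, 0 passed 2-fold and the median was 0.16. Among the other lists, 0 of 14 liver and 0 of 12 epidermis genes passed 2-fold, 5 of 12 red blood cell genes were lower by that much and 1 higher, and 1 of 14 gut and islet hormone genes was lower and 3 higher. At the shares of 3.12% lower and 2.87% higher over all genes, counts of 0 in lists of this size do not set a list apart. The 3 higher hormone genes became 1 with a pseudocount of 5 FPKM and 0 with a minimum mean of 5 FPKM. The counts over all genes also fell under both settings.

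Of the 19 measured genes of the exocrine pancreas list, 16 were lower by 2-fold or more and 1 was higher by as much. Over all measured genes the shares were 3.12% and 2.87%. The list was chosen with earlier results of these data known, so these counts are a description. The higher one was ptf1a, at 4.01 FPKM in the mutant library and listed at 0 in wild type. It was no longer called with a pseudocount of 5 FPKM or with a minimum mean of 5 FPKM. The gut astacins lay among the lower ones. The median of the list was -1.23, and 9 of the 19 were lower than c6ast4 and 4 lower than c6ast3. Both gut astacins were chosen by their low values, so their places among these genes are a description. Summed levels of the list were 6897 FPKM in the mutant library and 16472 FPKM in wild type. In the band from 50 FPKM upward, the 5 next below c6ast4 in difference were Metazoa_SRP, ela2l, SYCN (1 of 2), zgc:66382 and cpa4, from -1.41 to -1.33. The 5 next above it were ctsl.1, si:dkey-14d8.6, zgc:112160, try and si:ch211-240l19.6, from -1.29 to -1.21. Of these, ela2l, SYCN (1 of 2), zgc:66382, cpa4 and try belong to the exocrine pancreas list. The part of pancreas or gut RNA in the astacin difference was not tested.

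c6ast3, with a mean of 14.6 FPKM, does not belong to the band from 50 FPKM upward. Set by its difference into the order of that band, it would stand between si:ch211-5k11.12 (-1.54) and zgc:92137 (-1.43). The 5 next below that place also included hbbe1.2, amy2a, ela3l and hbae1, and the 5 next above it also ela2, Metazoa_SRP, ela2l and SYCN (1 of 2). The order holds abundant genes only, leaves out the genes at the level of c6ast3 and carries no test.

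The other measured markers of the hatching gland list were not higher by 2-fold. Of 7 measured genes of that list, 2 were higher by 2-fold or more, he1a and he1b themselves, which were chosen by these values. Another 1, ctsl.1, was lower by as much (61.7 FPKM in the mutant library and 152 FPKM in wild type). Over all measured genes the shares were 2.87% higher and 3.12% lower. The authors' deposited table calls ctsl.1, at a p of 5e-05 and a q of 0.0405, which again compare libraries and not genotypes. ctsl.1 was placed in the list with ctslb, but RefSeq gives the older name hgg1, for hatching gland gene, to ctslb and not to ctsl.1. ctslb itself was not measured, with 0.868 FPKM in the mutant library and 0.719 FPKM in wild type summed over 3 rows. The transcription factor gene klf4b (now klf17), of the developing hatching gland, had 4.14 FPKM in the mutant library and 5.76 FPKM in wild type, within 2-fold. xbp1, prdm1a and cd63, which many other cells use, lay within 2-fold too. Within the hatching gland list, he2 was thus listed at 0 in both libraries and ctslb lay under the mean of 1 FPKM. The genes he1a, he1b and klf4b were measured, he1b with 1.12 FPKM in wild type.

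Other zinc metalloproteases were set beside the family. Of 29 measured genes of matrix metalloproteases and of the ADAM and ADAMTS families, 0 were lower by 2-fold or more and 1, mmp11a, was higher by as much. These counts lie near the shares over all measured genes, 3.12% lower and 2.87% higher, and the median was 0.14. None was as low as c6ast4 or c6ast3, and mmp11a alone had a larger difference than he1a. The astacin members were chosen by their differences, so nothing is read from these places.

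**Figure D4:**
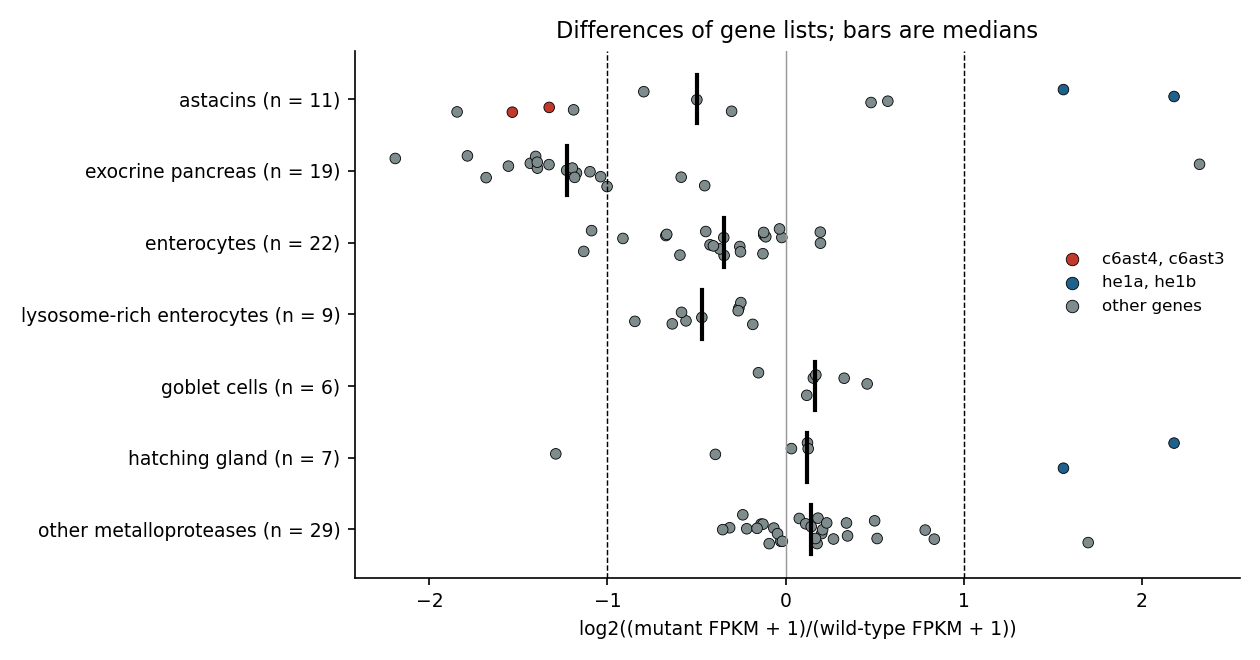
Log2 differences, mutant over wild type with 1 FPKM added to each, of the measured genes of 7 lists, with 1 point per gene, a bar at each median and dashed lines at 2-fold. The c6ast genes lie left of every enterocyte gene and among the exocrine pancreas genes, and he1a and he1b lie right of the other hatching gland genes. These astacins were chosen by their differences, so their places are a description.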

How the data were processed

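RNA from whole larvae was sequenced by a standard Illumina protocol, per the labels' protocols. CASAVA, Bowtie and the Zv9 build stand in the submitters' processing notes, without roles or versions, and the program that made the table is not stated there. The deposited values were read as FPKM from the layout of a Cuffdiff table, per the file headers. The p-values and q-values are the authors' own, copied from the deposited table. Columns holding spreadsheet error values were not used. The symbol column was used, although some of its symbols had been turned into dates, such as 1-Mar and 10-Sep. Counts are not given, so absolute depth is unknown and no counting interval was computed. In 350 low rows (above 0 in both libraries, mean of at most 0.3 FPKM), the most common ratio of mutant to wild type was 0.798. If such rows hold equal fragment counts, the depth of the mutant library was 1.25 times that of wild type. That assumption was not checked. FPKM summed to 874244 in the mutant library and 875340 in wild type.

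Rows sharing a symbol were summed, leaving 29358 symbols. Differences and the 2-fold calls used a pseudocount of 1 FPKM, which shrinks low genes. Each printed fold value is a plain ratio. Lists were matched by symbol and by current name through the Ensembl ID, and astacins also by orthology name. The members and lists were chosen with earlier results of these data known. Named genes are the members, every astacin of the list with a row, for each other list the 2 lowest, 2 highest and 2 most abundant, of which only some are printed, and the 5 genes on each side of each gut astacin in the order of differences among genes averaging 50 FPKM or more. prdm1a, ctslb, aox1, aox3 and the chromosomal neighbours were named after their values were seen. No test was run, since there is 1 library per genotype. The calling step was tested on simulated data. Recovery was scored only for genes averaging at least 5 FPKM, which leaves out he1b. The planted shifts were larger than the differences of c6ast4, c6ast3 and he1a. The simulated noise was an assumed value, since no replicate gives one. The simulation therefore does not show how reliable the calls are in these libraries. Alternatives were other pseudocounts, filters, rescalings and ways of joining rows. Python 3.11.15, pandas 2.3.3 and NumPy 2.4.6 were used.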

Additional observations from a re-analysis of the deposited data

How the results depend on the processing

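The 4 members kept their direction and stayed past 2-fold with pseudocounts of 0.1 and 5 FPKM and under both rescalings. Taking the highest row per symbol could not change them, since each has 1 row. Each rescaling multiplies the whole mutant library by 1 factor, and the median log2 difference of all genes became -0.001 and 0.021. The rescalings could therefore move the members only slightly. Log2 differences ranged from -1.33 to -1.29 for c6ast4, from -1.65 to -1.18 for c6ast3, from 1.31 to 1.63 for he1a and from 1.15 to 2.84 for he1b. The summed gut and hatching gland levels also kept their direction under both rescalings, for the same reason. Counts over all genes moved with the treatment of low values, by construction. Genes at least 2-fold higher and lower numbered 927 and 1049 with a pseudocount of 0.1 FPKM, 91 and 124 with 5 FPKM, and 156 and 197 with a minimum mean of 5 FPKM, against 548 and 596. With that last filter the astacin list held 1 gene higher and 2 lower, against 2 and 4, because he1b, mep1a.2 and ASTL (10 of 10) fall under it. Without ctsl.1, a choice made after the data were seen, 0 hatching gland genes were lower. Taking each list count under each alternative, 158 stayed within 1.5 times their value and 16 did not. Many of the 158 were counts of 0 that stayed at 0, so the tally says little about stability. No paired analysis was possible because there is 1 library per genotype and the labels carry no replicate numbers; for the same reason no library could be left out. Without counts or replicates, the depth limit of low genes such as he1b cannot be stated.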
